A study of Mus musculus with 10 samples.

Results

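The metabotropic glutamate receptors examined here were the 6 genes Grm2, Grm3, Grm4, Grm5, Grm7 and Grm8, chosen by their GRCm38 symbols among the 54838 gene identifiers counted. All 6 passed the expression filter and were among the 16806 genes tested. The libraries came from mice of the MC-TRAP genotype, Drd2-Cre;Eef1a1LSL.eGFPL10a/+, on the C57BL/6 strain, in which Cre under Drd2 control switches on the ribosomal protein L10a tagged with EGFP. Precipitation of EGFP recovered ribosome-bound RNA from mossy cells, excitatory neurons of the dentate hilus, so that the values describe a translatome enriched for mossy cells and not a pure one. The Cre line also marks scattered GABAergic interneurons and neurons of the ventral subiculum. The 5 Dorsal libraries were from the dorsal end of the hippocampus and the 5 Ventral libraries from the remainder, without the medial part of the ventral pole. All the mice were young adult males of about 10 weeks. Each library was made from the pooled tissue of 5 animals, so that the spread between libraries is a spread between pools. Per the study's methods, each hippocampus was divided into its dorsal and ventral part, so the Dorsal and Ventral libraries share their animals. The labels do not say which libraries come from the same pool, and the main test treated the libraries as unpaired.

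Metabotropic glutamate receptors are G protein-coupled receptors that dimerize and bind glutamate through a large extracellular domain. Group I receptors such as mGluR5 couple to Gq/11 and phospholipase C, and sit mostly around the postsynaptic density. Group II receptors (mGluR2 and mGluR3) and group III receptors (mGluR4, mGluR7 and mGluR8) couple to Gi/o, lower cyclic AMP and often act on the presynaptic side, where they limit transmitter release. In the hippocampus they tune excitability and synaptic plasticity, and mGluR3 is also known from astrocytes.

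The promoters of Grm2, Grm3, Grm7 and Grm8 are shown because they are the sequences, upstream of the receptors compared here, that the RefSeq promoter table for GRCm38.p6 holds for 4 of the 6 genes. Each line gives the 250 bases before an annotated start, 5′ to 3′ on the gene's strand, for the start nearest to that of the gene model. That start can differ from the start of the gene model, and the windows of Grm7 and Grm8 reach a little way into the gene spans given below. Capitals mark GGGCGG or its reverse complement CCGCCC, the core of a GC box. The windows lie at chr9:106656110-106656359 (minus strand) for Grm2, chr5:9725353-9725602 (minus strand) for Grm3, chr6:110645348-110645597 (plus strand) for Grm7 and chr6:28135147-28135396 (minus strand) for Grm8.
Grm2: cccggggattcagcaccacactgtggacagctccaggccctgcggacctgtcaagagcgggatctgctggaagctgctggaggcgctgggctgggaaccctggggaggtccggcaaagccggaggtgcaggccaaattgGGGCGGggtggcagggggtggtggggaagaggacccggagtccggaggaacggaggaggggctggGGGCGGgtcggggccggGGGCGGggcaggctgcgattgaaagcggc
Grm3: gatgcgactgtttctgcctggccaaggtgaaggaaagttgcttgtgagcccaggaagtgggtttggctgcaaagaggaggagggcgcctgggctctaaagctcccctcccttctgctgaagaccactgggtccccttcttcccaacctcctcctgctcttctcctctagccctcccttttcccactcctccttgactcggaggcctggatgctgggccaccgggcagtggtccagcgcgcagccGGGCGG
Grm7: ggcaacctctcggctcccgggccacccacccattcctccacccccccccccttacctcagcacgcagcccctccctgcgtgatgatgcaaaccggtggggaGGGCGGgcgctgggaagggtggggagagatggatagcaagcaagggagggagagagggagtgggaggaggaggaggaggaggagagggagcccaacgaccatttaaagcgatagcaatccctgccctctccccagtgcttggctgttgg
Grm8: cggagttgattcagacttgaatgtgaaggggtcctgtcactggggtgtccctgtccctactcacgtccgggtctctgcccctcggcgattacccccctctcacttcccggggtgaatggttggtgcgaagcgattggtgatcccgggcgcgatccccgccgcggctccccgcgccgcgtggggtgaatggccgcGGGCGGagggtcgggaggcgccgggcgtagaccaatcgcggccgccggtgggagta

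GGGCGG on either strand was found 3 times in the Grm2 window and 1 time each in those of Grm3, Grm7 and Grm8, and 32.7% of the 32851 promoter windows of the same length held at least 1 copy. CCAAT on either strand was found 2 times before Grm8 and 1 time before Grm2, against a share of 33.8% of all windows. Neither TATAAA nor TGACGTCA, searched on both strands, occurred in the 4 windows, and these motifs were present in 12.4% and 1.55% of all windows. GC content was 62.4% for Grm3, 65.2% for Grm7, 68.4% for Grm8 and 71.2% for Grm2, all above the median window of 52.4%. The Grm8 window held 29 CpG dinucleotides, Grm2 16, Grm7 9 and Grm3 8, beside a median of 6.

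Counts on genes ranged from 11138676 to 16779821 in the Dorsal libraries and from 11618625 to 20594364 in the Ventral libraries. A count of 3, taken as the detection floor, corresponded to 0.141 to 0.282 CPM (read counts scaled to a common library size, with TMM factors), and the lowest receptor count in any library was 35. The share of read pairs on no gene was 21.8 to 33.9% in Dorsal and 11.6 to 19.3% in Ventral libraries, and mitochondrially encoded transcripts were at 2692 to 3493 CPM in Dorsal and 437 to 1209 CPM in Ventral libraries. Each of these 2 measures separated the groups completely (two-sided exact permutation tests, p = 0.00794, the smallest that 5 against 5 allows). Of 8 mossy cell marker genes 7 were tested, their summed level was 1798 to 2119 CPM in Dorsal and 1932 to 2263 CPM in Ventral libraries, and Drd2 itself averaged 28.1 CPM dorsally and 20.7 CPM ventrally. Within that sum Gria2 and Gria3 were called higher dorsally, and Calb2, at 65.0 CPM dorsally and 615 CPM ventrally, and Satb1 were called higher ventrally. With a correction for GC content and length, Gria2 (log2 fold change -0.17) and Gria3 (0.31) were not called, while Calb2 and Satb1 were. All 10 astrocyte markers had counts in every library. They summed to 1972 to 2259 CPM in Dorsal against 725 to 1380 CPM in Ventral libraries. Most of that sum was Slc1a2, at 1771 CPM dorsally and 868 CPM ventrally on average. Of the 10 markers, 5 were called higher dorsally and 1, Aldh1l1, higher ventrally. The 8 oligodendrocyte markers, which also had counts in every library, summed to 2599 to 3092 CPM dorsally against 992 to 1844 CPM ventrally. The 8 interneuron markers summed to 3262 to 4354 CPM dorsally and 3943 to 5181 CPM ventrally, mostly from Gad2. Of the 8, 3 (Sst, Pvalb and Lhx6) were called higher ventrally and 0 dorsally. The Pvalb call was lost in 5 of the 10 fits that left out a library. None of the 3 was called with a correction for GC content and length. Over all genes tested, 15.7% were called higher dorsally and 9.85% higher ventrally, and no set test of the markers was run.

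The comparison of Dorsal with Ventral libraries asked which receptors differ in ribosome-bound RNA along the hippocampal axis. Grm5, the group I gene, and Grm8, a group III gene, were higher dorsally. The group II genes Grm2 and Grm3, and the group III genes Grm4 and Grm7, did not pass the test, which does not show that their levels were equal. Calls required an adjusted p under 0.05 (edgeR's quasi-likelihood test with Benjamini-Hochberg adjustment over all genes tested) and a difference of more than 0.58 on the log2 scale between the mean CPM values, each raised by 1. Of the 6 receptors 2 were called dorsal-enriched and 0 ventral-enriched, beside 15.7% and 9.85% of all genes tested (the receptors not called are given one by one below). DESeq2's Wald test also called Grm5 and Grm8. In bulk RNA of this kind, fewer cells of a type and less RNA per cell cannot be told apart.

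**Figure D1:**
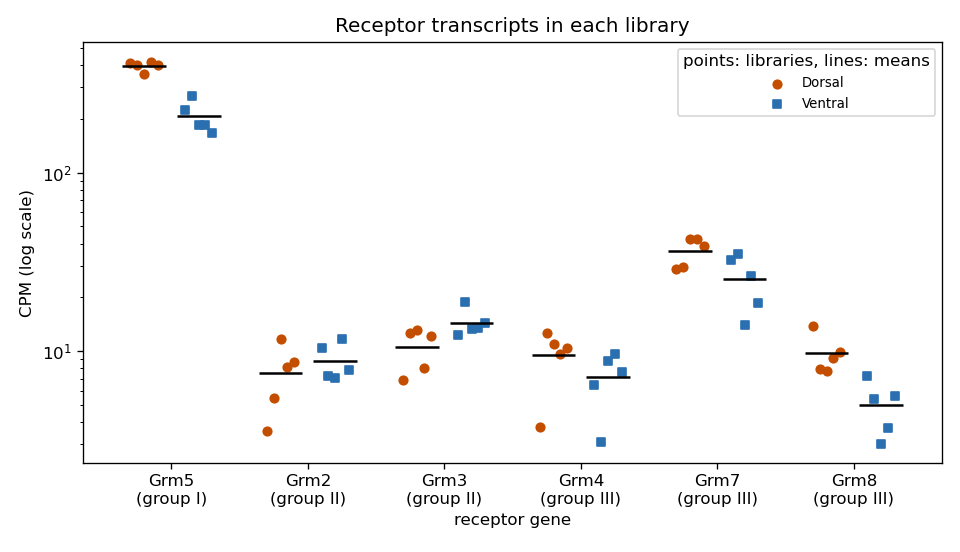
Transcript level of the 6 receptor genes in CPM (log axis), with 1 point per library (circles Dorsal, squares Ventral) and a line at the mean of each group of 5. Grm5 stands far above the other receptors, and the Dorsal and Ventral points of Grm5 and of Grm8 do not overlap.

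Grm5 (ENSMUSG00000049583) lies on the plus strand at chr7:87584168-88134907 of GRCm38, a span of 550.7 kb with 10247 exonic bases. It measured 410, 403, 355, 419 and 403 CPM in Dorsal libraries 1 to 5, and 225, 270, 185, 185 and 167 CPM in Ventral libraries 1 to 5. Every Dorsal library was above every Ventral one, and the Ventral libraries differed more among themselves, with a coefficient of variation of 20.03% against 6.28% in the Dorsal ones. The means were 398 ± 25.0 CPM dorsally and 206 ± 41.3 CPM ventrally (SD, n = 5 each). The fitted log2 fold change was 0.95 (SE 0.12, 95% interval 0.69 to 1.22, edgeR adjusted p = 0.000151), a level 1.93-fold higher dorsally with an interval of 1.61 to 2.32. Of all genes tested, 9.81% had every Dorsal library above every Ventral one, 8.36% had the reverse, and 18.2% had either.

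Grm8 (ENSMUSG00000024211), a presynaptic receptor with high affinity for glutamate, spans 860.1 kb on the minus strand at chr6:27275119-28135178. The promoter window shown above for it reaches a little way into this span. Dorsal libraries 1 to 5 held 13.8, 7.98, 7.75, 9.11 and 9.88 CPM, and Ventral libraries 1 to 5 held 7.25, 5.36, 3.03, 3.73 and 5.61 CPM. The groups did not overlap, though the lowest Dorsal library and the highest Ventral library were close. Mean levels were 9.71 ± 2.45 CPM dorsally and 4.996 ± 1.66 CPM ventrally (SD, n = 5 each). The log2 fold change was 0.88 (SE 0.26, 95% interval 0.32 to 1.45, edgeR adjusted p = 0.0205), or 1.84-fold with an interval of 1.25 to 2.73. Without Ventral library 4 the call was lost, at a log2 fold change of 0.79 and an adjusted p of 0.0569. Counts behind these values were 36 to 152, and 0.970% of the gene's exonic bases overlap Mir592.

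**Figure D2:**
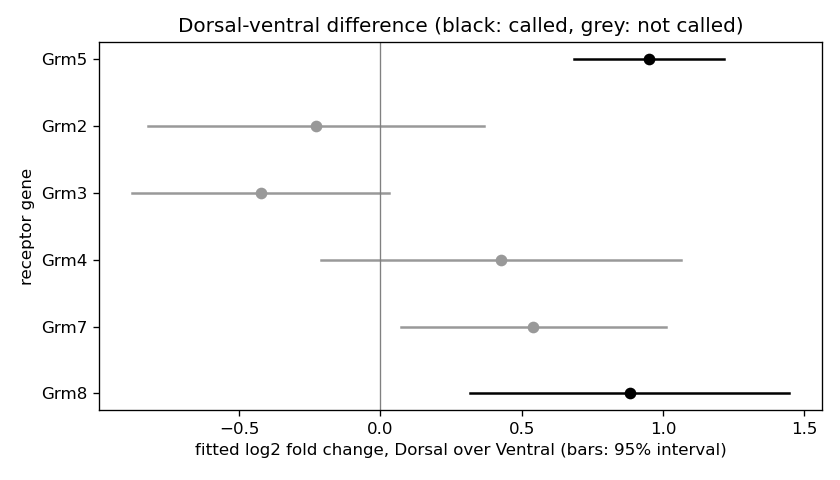
Fitted log2 fold change, Dorsal over Ventral, of each receptor (points) with its 95% interval (bars), black where the gene was called and grey where it was not. The intervals of Grm5, Grm7 and Grm8 lie above 0, and those of Grm2, Grm3 and Grm4 include it.

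Grm7 (ENSMUSG00000056755), whose protein sits in presynaptic active zones and responds only to high glutamate, occupies chr6:110645581-111567230 on the plus strand, 921.7 kb in all. Its levels were 28.8, 29.6, 42.7, 42.5 and 38.7 CPM in Dorsal libraries 1 to 5 and 32.5, 34.8, 14.1, 26.3 and 18.7 CPM in Ventral libraries 1 to 5. Dorsal libraries 3, 4 and 5 were above all Ventral ones, while Dorsal libraries 1 and 2 lay within the Ventral range. The log2 fold change was 0.54 (SE 0.22, 95% interval 0.07 to 1.01) with an edgeR adjusted p of 0.0698. The log2 difference between the mean CPM values, each raised by 1, was 0.51. The gene thus missed both thresholds and was not called. Leaving out Ventral library 1 or Ventral library 2 gave a call, at adjusted p values of 0.0445 and 0.0362. Antisense Gm20387 shares 2.21% of its exonic bases.

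Grm4 (ENSMUSG00000063239), another presynaptic group III receptor, lies at chr17:27422387-27521403 on the minus strand. Dorsal libraries 1 to 5 held 3.76, 12.6, 10.95, 9.65 and 10.4 CPM, and Ventral libraries 1 to 5 held 6.42, 3.08, 8.85, 9.66 and 7.59 CPM. Dorsal library 1 and Ventral library 2 were the lowest of their groups, and the groups overlapped. The log2 fold change was 0.43 (SE 0.30, 95% interval -0.21 to 1.06, edgeR adjusted p = 0.285). A correction for GC content and length, which acts on a gene with the highest GC content of the 6 (61.7%), gave a call at 0.74 (edgeR adjusted p = 0.0417), which was lost again together with the replicate block (0.71, edgeR adjusted p = 0.084). With the share of read pairs on no gene as a covariate the value turned to -0.42 (adjusted p = 0.703).

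Grm3 (ENSMUSG00000003974), a receptor that also responds to the peptide N-acetylaspartylglutamate (NAAG), lies at chr5:9485541-9725170 on the minus strand. Dorsal libraries 1 to 5 measured 6.86, 12.6, 13.1, 8.03 and 12.1 CPM, and Ventral libraries 1 to 5 measured 12.2, 18.9, 13.2, 13.5 and 14.4 CPM. Of the Ventral libraries 4 were above the highest Dorsal one, and Ventral library 1 was not. The log2 fold change was -0.42 (SE 0.21, 95% interval -0.88 to 0.03, edgeR adjusted p = 0.137), and the gene was not called. The astrocyte markers given above summed to a higher level in every Dorsal library, mostly through Slc1a2, and their part in the Grm3 values was not tested.

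Grm2 (ENSMUSG00000023192), a mainly presynaptic group II receptor, lies at chr9:106643095-106656082 on the minus strand and is the shortest of the 6 genes at 13.0 kb. Its levels were 3.57, 5.45, 11.7, 8.09 and 8.71 CPM in Dorsal libraries 1 to 5 and 10.4, 7.29, 7.08, 11.7 and 7.82 CPM in Ventral libraries 1 to 5. The groups overlapped over most of their range, with Dorsal libraries 1 and 2 below all Ventral ones. The log2 fold change was -0.23 (SE 0.28, 95% interval -0.82 to 0.37, edgeR adjusted p = 0.556), and it turned to 0.08 with the GC content and length correction. Antisense Gm28111 shares 9.60% of its exonic bases, and since the strand setting of the counting is not given in the sources used here, its reads cannot be told apart there. Dorsal library 1 had the lowest value of all Dorsal libraries for Grm2, Grm3, Grm4 and Grm7, and the highest for Grm8.

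Pairs of receptors were compared within each library as ratios of counts, which do not depend on library scaling. The Grm5/Grm7 ratio was 11.3 ± 2.53 dorsally and 8.75 ± 2.60 ventrally (SD, n = 5 each, two-sided exact permutation test, p = 0.127, adjusted p = 0.333 over the 3 ratios). Without Ventral library 3 its unadjusted p was 0.0317 (exact permutation). The Grm8/Grm7 ratio was 0.280 ± 0.116 and 0.207 ± 0.0633 (exact permutation p = 0.222, adjusted p = 0.333), and the Grm3/Grm2 ratio was 1.55 ± 0.560 and 1.73 ± 0.592 (exact permutation p = 0.643, adjusted p = 0.643). None of the 3 ratios differed between the groups beyond the spread of the libraries, so a different size of the dorsal difference for Grm5 or Grm8 than for Grm7 was not detected.

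Levels per exonic length, in CPM per kb over all 10 libraries, ran from Grm5 (29.5) through Grm7 (5.25), Grm3 (4.10), Grm2 (1.67) and Grm4 (1.39) to Grm8 (0.743). Among 16800 tested genes with a length, Grm5 ranked above 90.9%, Grm7 above 62.4% and Grm8 above 22.8%. Neighbours in this order were compared within libraries by two-sided exact sign-flip permutation tests, adjusted over the 5 pairs. These tests treated the 10 libraries as independent, although the Dorsal and Ventral libraries share their animals, so their p-values may be too small. Grm5 was above Grm7 in 10 of 10 libraries, by 5.56-fold on average, and Grm3 above Grm2 in 10 of 10, by 2.499-fold (adjusted exact p = 0.00488 for each). Grm4 was above Grm8 in 8 of 10 libraries, by 1.88-fold (adjusted exact p = 0.0358). Grm7 and Grm3, in order in 7 of 10 libraries, and Grm2 and Grm4, in order in 8 of 10, did not pass the test over the pooled libraries (adjusted exact p = 0.182 for each). The order of the group means differed between the regions for these pairs. Grm7 was above Grm3 in 5 of 5 Dorsal libraries (6.20 against 3.46 CPM per kb on average) and in 2 of 5 Ventral ones (4.30 against 4.74), while Grm2 was above Grm4 in 4 of 5 libraries of each region, with means of 1.53 against 1.59 dorsally and 1.81 against 1.19 ventrally. With the longest transcript as the length, Grm7 stood above Grm3 (unadjusted exact p = 0.00977), Grm4 and Grm2 changed places and Grm4 and Grm8 no longer differed (unadjusted exact p = 0.463), so the order of the lowest genes depended on the gene model.

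Summed per exonic length, the 6 receptors came to 52.6 ± 2.11 CPM per kb dorsally and 32.7 ± 5.59 CPM per kb ventrally (SD, n = 5 each). Group I, here Grm5 alone, made up 67.6 to 80.2% of this sum in Dorsal and 57.6 to 64.5% in Ventral libraries. Group II took 5.97 to 13.1% in Dorsal and 17.3 to 22.9% in Ventral libraries, and group III took 13.9 to 19.3% and 14.9 to 20.7%. The shares of groups I and II did not overlap between regions, whereas those of group III did. The levels of group II did overlap, at 2.98 to 6.70 CPM per kb in Dorsal and 5.79 to 7.69 CPM per kb in Ventral libraries. Group III levels also overlapped, at 6.92 to 9.87 and 4.18 to 7.33 CPM per kb. Shares of a common sum move against each other, and these are given as a description.

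**Figure D3:**
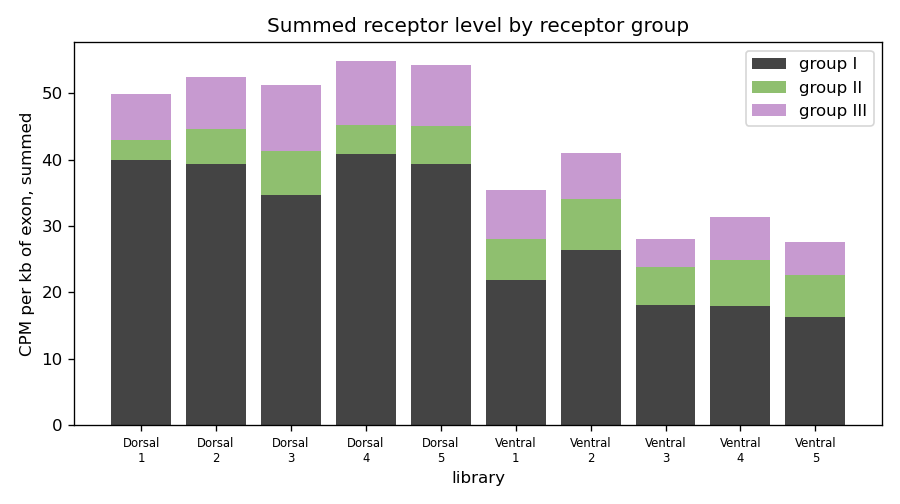
Summed level of the receptors in CPM per kb of exon (linear axis from 0), stacked by receptor group, with 1 bar per library. The Dorsal bars reach 49.9 to 55.0 and the Ventral bars 27.6 to 41.0, and the group I segment accounts for most of each.

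Of 13 annotated genes lying inside the spans of the receptors, 3 were expressed enough to be tested, and all 3 lie inside introns of Grm5 on its strand. They belong to the GENCODE class TEC, loci with transcript evidence that still await experimental proof. Gm44848 lies at chr7:88063061-88066294, Gm44847 at chr7:88082813-88084803 and Gm44846 at chr7:88119158-88122400, each without a base shared with a Grm5 exon. The first 120 bases of Gm44847 (chr7:88082813-88082932, plus strand) and of Gm44846 (chr7:88119158-88119277, plus strand) are shown from the GENCODE transcripts of GRCm38. Among the 3 tested loci, these are the ones for which the counts of the groups did not overlap. No base is in capitals because no motif was searched in them.
Gm44846: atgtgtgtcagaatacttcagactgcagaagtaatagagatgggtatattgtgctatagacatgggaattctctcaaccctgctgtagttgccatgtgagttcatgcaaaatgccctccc
Gm44847: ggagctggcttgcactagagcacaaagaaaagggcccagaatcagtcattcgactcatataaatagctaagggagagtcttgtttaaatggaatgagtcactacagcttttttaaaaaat

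Gm44846 measured 29.2, 6.55, 17.1, 26.7 and 21.1 CPM in Dorsal libraries 1 to 5 and 0.831, 0.176, 0.169, 0.189 and 0.0942 CPM in Ventral libraries 1 to 5, the latter from 15, 2, 2, 3 and 2 counts. Gm44847 had 55, 58, 98, 107 and 92 counts dorsally and 2, 9, 0, 0 and 0 ventrally. Gm44848 had 83, 67, 2, 96 and 24 counts dorsally and 11, 2, 2, 2 and 4 ventrally. The groups did not overlap for Gm44846 and Gm44847, whereas for Gm44848 Dorsal library 3 was as low as the Ventral ones. No Ventral library exceeded 0.831 CPM for any of them, so all 3 passed the expression filter through their Dorsal values alone and had to differ. Their values are therefore a description, and no test of them is given.

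Of the 852 TEC genes tested, 58.0% were called dorsal-enriched and 3.87% ventral-enriched, beside 11.4% and 10.3% of the protein-coding genes. A gene can pass the expression filter through a single region alone, as the tested loci inside Grm5 did. How many TEC genes passed it in that way was not examined, so these shares are a description. Together the 5 TEC genes inside Grm5 held as many counts as 5.16 to 10.3% of the Grm5 count in Dorsal libraries and 0.182 to 0.789% in Ventral libraries. The share of read pairs on no gene was also higher in every Dorsal library, as given above, and its part in the values of these loci was not tested. With that share, which separates the groups completely, as a covariate, Grm5 had a log2 fold change of 1.20 (edgeR adjusted p = 0.00825) and Grm8 one of 1.73 (edgeR adjusted p = 0.0354).

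**Figure D4:**
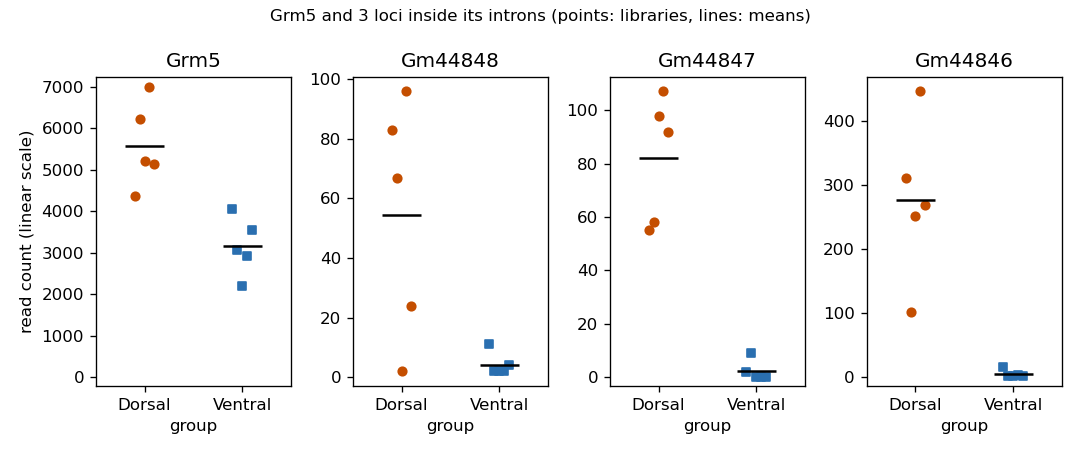
Read counts (linear axes, a separate scale per panel) of Grm5 and of the 3 loci inside its introns, with 1 point per library and lines at group means. The Ventral counts of the intronic loci stay at 15 or below, while the Dorsal counts of Gm44846 reach 446.

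The genes around the receptors were described by 6 lists holding 104 different genes, of which 100 were tested. Of these, 19 were called dorsal-enriched and 6 ventral-enriched, that is 19.0% and 6.00%, beside the 15.7% and 9.85% of all genes given above, and their median log2 fold change was -0.02 against -0.0044 over all genes tested. Of the protein-coding genes tested, 11.4% were called dorsal-enriched and 10.3% ventral-enriched. No set test was run and the lists were chosen with earlier results known, so these shares are no result about the lists. The members are given as values.

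Downstream of group I receptors, 3 of 13 tested genes of Gq/11 signalling were called higher dorsally and 0 higher ventrally, and the list median was 0.13. Plcb4, a phospholipase C isoform driven by Gq, averaged 240 ± 12.6 CPM dorsally and 126 ± 25.2 CPM ventrally (log2 fold change 0.94, edgeR adjusted p = 0.000183). Prkca, a protein kinase C, averaged 397 ± 42.8 and 258 ± 22.1 CPM (0.62, edgeR adjusted p = 0.00054), a call lost without Dorsal library 1. Dagla, which makes the endocannabinoid 2-AG, averaged 74.9 ± 24.5 and 45.5 ± 13.6 CPM (0.71, edgeR adjusted p = 0.0374), with overlapping libraries, and lost its call in 7 of the 10 fits that left out a library. The most abundant genes of the list that were not called were Gnaq, a Gq subunit (0.20, edgeR adjusted p = 0.105), and Plcb1 (-0.12, edgeR adjusted p = 0.614).

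Of 26 genes of the Gi/o branch used by groups II and III, 5 were called higher dorsally and 2 higher ventrally, and the list median was -0.02. The adenylyl cyclase Adcy1, stimulated by calcium, was at 741 ± 71.4 CPM dorsally and 329 ± 44.6 CPM ventrally (1.17, edgeR adjusted p = 1.63e-05), and the cyclases Adcy5 (0.65, edgeR adjusted p = 0.00248) and Adcy6 (0.80, edgeR adjusted p = 0.0248) were called as well. The subunits of G protein-gated potassium (GIRK) channels went in different directions. Kcnj3 (0.92, edgeR adjusted p = 0.000326) and Kcnj6 (1.08, edgeR adjusted p = 0.00128) were higher dorsally, and Kcnj9 was higher ventrally, at 41.5 ± 9.15 CPM against 21.4 ± 2.70 CPM (-0.94, edgeR adjusted p = 0.00112). Gng3, a G protein gamma subunit, was called ventral-enriched at -0.58 (edgeR adjusted p = 0.00164), close to the fold threshold, and 24.2% of its exonic bases overlap another gene, as do 31.1% of those of Kcnj3. The Gng3 call was lost in 6 of the 10 fits that left out a library and in 8 of the 15 other alternatives. Adcy5 lost its call without Ventral library 2, and Adcy6 without Dorsal library 4, Dorsal library 5 or Ventral library 5. The abundant Gnb1 (-0.03, edgeR adjusted p = 0.868) and Gnao1 (-0.19, edgeR adjusted p = 0.101) were not called.

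Among 22 scaffolds and binding partners, 5 were called higher dorsally and 1 higher ventrally, and the list median was -0.08. The Homer proteins link group I receptors to calcium stores and Shank proteins, and Homer2 stood at 422 ± 10.1 CPM dorsally and 234 ± 36.3 CPM ventrally (0.85, edgeR adjusted p = 0.000118). Homer1 was called at 0.62 (edgeR adjusted p = 0.00099), a value that turned to -0.27 with the GC content and length correction and lost its call without Dorsal library 1 or Ventral library 5. The Shank genes Shank1 (0.95, edgeR adjusted p = 0.00035) and Shank3 (0.89, edgeR adjusted p = 0.00513) and the cytoskeletal linker Macf1 (0.83, edgeR adjusted p = 6.86e-05) were also higher dorsally. Grip1, a PDZ adaptor, was called ventral-enriched (-0.75, edgeR adjusted p = 0.0303), and lost its call in 6 of the 10 fits that left out a library. The abundant Calm2, which encodes calmodulin, was not called (-0.28, edgeR adjusted p = 0.0526).

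Of the genes that end receptor signals, 15 were tested, 1 was called higher dorsally and 2 higher ventrally, and the list median was -0.25. Grk5, a kinase that phosphorylates active receptors, averaged 53.5 ± 15.0 CPM dorsally and 21.8 ± 2.81 CPM ventrally (1.30, edgeR adjusted p = 0.000321). The RGS proteins, which speed GTP hydrolysis by G alpha subunits, included Rgs12, at 23.2 ± 3.12 CPM dorsally and 47.5 ± 5.51 CPM ventrally (-1.04, edgeR adjusted p = 0.000201), and Rgs4 (-0.64, edgeR adjusted p = 0.0032), whose call was lost without Dorsal library 2. The abundant Rgs17 had a low adjusted p but missed the fold threshold (-0.54, edgeR adjusted p = 0.00751), and Rgs8 was not called (-0.17, edgeR adjusted p = 0.29). The GC content and length correction moved Rgs17 to -1.45 with a call, and the list's ventral-enriched genes from 2 to 5.

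Among 12 genes whose translation or activity group I signalling is known to engage, 3 were called higher dorsally and 0 higher ventrally, and the list median was 0.15. Arc, an immediate early gene of receptor endocytosis, averaged 53.0 ± 8.10 CPM dorsally and 30.1 ± 2.21 CPM ventrally (0.81, edgeR adjusted p = 0.000692). Ptpn5, which encodes the phosphatase STEP, was at 122 ± 10.05 and 67.9 ± 18.0 CPM (0.85, edgeR adjusted p = 0.00175), and the other called gene was Homer1. Camk2a had an adjusted p of 0.00188 in edgeR but a log2 fold change of 0.41, below the threshold, and Map1b was not called (0.08, edgeR adjusted p = 0.498).

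Of 13 tested genes for the supply and clearance of glutamate and NAAG, 3 were called higher dorsally and 1 higher ventrally, and the list median was 0.07. The glial glutamate transporters Slc1a2, at 1771 ± 80.4 CPM dorsally and 868 ± 161 CPM ventrally (1.03, edgeR adjusted p = 6.83e-05), and Slc1a3 (0.65, edgeR adjusted p = 0.0336, a call lost in 5 of the 10 fits that left out a library) were also on the astrocyte marker list, which held 5 genes called higher dorsally and 1 called higher ventrally among its 10. Folh1, which encodes a peptidase that cleaves NAAG, was at 2.74 ± 1.15 and 1.23 ± 0.941 CPM (1.36, edgeR adjusted p = 0.0477) and lost its call in 6 of the 10 fits that left out a library. Slc17a6, a vesicular glutamate transporter, was at 11.4 ± 1.75 CPM dorsally and 29.7 ± 4.63 CPM ventrally (-1.39, edgeR adjusted p = 0.00011). Glul, which encodes glutamine synthetase, was not called (0.21, edgeR adjusted p = 0.0971).

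**Figure D5:**
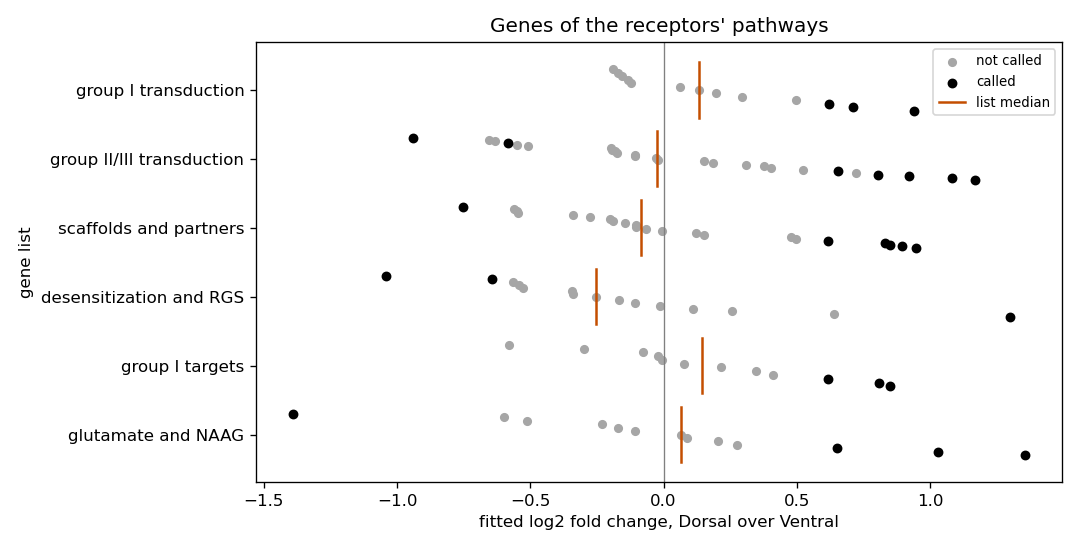
Fitted log2 fold change, Dorsal over Ventral, of each tested gene (points, black where called) in 6 lists of receptor pathway genes, with the list median as a vertical line. The medians lie between -0.25 and 0.15, and called genes lie on both sides of 0 in 4 of the lists.

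The protein-coding genes whose log2(CPM + 1) was most like that of each receptor over the 10 libraries were found among 13548 genes. These correlations are a description, since the libraries share their depth and their region and the highest of many values were picked. For Grm5 they were Prkcd, a protein kinase C (Pearson r = 0.990), and the growth factor gene Ptn (0.985), and after removal of the group means the values were 0.943 and 0.897. Prkcd averaged 190 CPM dorsally and 38.7 CPM ventrally, and Ptn 613 and 283 CPM. For Grm8 they were the bicarbonate transporter gene Slc4a8 (0.968) and Sike1 (0.954), and for Grm7 Ggt7 (0.970) and Srd5a3 (0.968). For Grm3 they were the somatostatin receptor gene Sstr1 (0.966) and Blcap (0.960). Sstr1 was low, at 0.822 CPM dorsally and 1.65 CPM ventrally on average. For Grm2 they were the potassium channel-interacting gene Kcnip3 (0.966) and Bcar1 (0.958), and for Grm4 Adgrf5 (0.956) and Zfp523 (0.956).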

How the data were processed

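Ribosome-bound RNA was amplified with the Ovation kit, made into TruSeq libraries and sequenced as paired reads by the authors, who aligned the reads to GRCm38 with STAR 2.5.2b and counted them with HTSeq 0.7.2, per the labels and the study's methods. The deposited values are raw read counts per gene, which the authors had not normalized, in 1 file per library. The strand setting and annotation release are not given in the sources used here. Rows that name no gene stayed out of library sizes, and their share is given with the results. Groups and replicate numbers came from the sample labels.

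The software was edgeR 4.0.16 under R 4.3.3. The filter required more than 1 CPM in no fewer than 2 libraries. TMM scaling and the quasi-likelihood test with Benjamini-Hochberg adjustment followed. Calls needed an adjusted p under 0.05, and the mean CPM, each raised by 1, had to differ by more than 0.58 on the log2 scale in either direction. The p-values measure the spread between pools of animals. Replicate libraries gave a chi-square of 4.36 to 45.1 per degree of freedom against each other, so none was a duplicate. Intervals and floors cover counting error or library spread, since reads amplified without molecular identifiers do not count molecules one by one. Symbols, lengths and positions came from GENCODE for GRCm38, which matched 54809 of 54838 identifiers. The fit was tested on simulated data, in which many changes of about the size of those of Grm5 and Grm8 were missed. Far fewer genes were changed there than were called here, so the share missed does not carry over to these data. A gene that was not called may still differ.

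The members and lists were chosen with earlier results of these data known, and the edgeR 4 form of the quasi-likelihood test was taken over the edgeR 3 form after an earlier analysis with it had been seen. Named genes were the 6 receptors, tested genes inside their spans, the 2 protein-coding genes nearest to each in pattern, and from each list the called genes and the 2 most abundant genes not called. That rule also covers other receptors of the family and some list genes, which are not reported here. Alternatives were DESeq2 1.42.0 (size factors and Wald test), other scalings, filters, thresholds and tests, the replicate block, a GC content and length correction, and each library left out. Protein-coding genes alone, the edgeR 3 form of the test and the share on no gene as a covariate were chosen after seeing the data.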

Additional observations from a re-analysis of the deposited data

Results flagged for a closer look

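Dixon's test at its 95% critical value for 5 libraries (0.71) was applied to 24 groups of values, of which 4 had a library far from the other 4, and chance flags about 1 in 20 groups. Grm5 was lowest in Dorsal library 3, at 355 CPM, and without that library the receptor was still called. The other 3 were Ventral libraries with few counts of the loci inside Grm5 introns. Gm44847 reached 0.791 CPM in Ventral library 2, Gm44846 reached 0.831 CPM in Ventral library 1, and Gm44848 reached 0.609 CPM in Ventral library 1.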

How the results depend on the processing

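Grm5 was called under all 15 alternatives (log2 fold change 0.80 to 1.20) and without each library in turn (0.89 to 1.06). Leaving out 1 library gave 0.75 to 1.06 for Grm8, 0.41 to 0.66 for Grm7, 0.28 to 0.59 for Grm4, -0.51 to -0.32 for Grm3 and -0.44 to -0.08 for Grm2. Grm8 was not called at an adjusted p below 0.01 (log2 fold change 0.88, edgeR adjusted p = 0.0205), nor without Ventral library 4. With the GC content and length correction, Grm4 was called at 0.74 and Grm2 turned to 0.079. Together with the replicate block, Grm4 was not called (0.71) and Grm2 was at 0.063. With the share on no gene as a covariate, Grm4 turned to -0.42. The causes were not tested.

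Dorsal-enriched and ventral-enriched genes numbered 1498 and 897 at an adjusted p below 0.01, and 834 and 339 with the share on no gene as a covariate, a share that differs between the groups. Without other biotypes 1665 genes were dorsal-enriched. Leaving out 1 library gave 2102 to 2670 dorsal-enriched and 1212 to 1815 ventral-enriched genes. With no expression filter the median log2 fold change of all genes was 0.11. Under the covariate the pathway lists held 9 dorsal-enriched and 1 ventral-enriched genes, and the marker lists 5 and 2. The GC content and length correction gave 10 ventral-enriched pathway genes, and under it Homer1 turned to -0.27 (with the replicate block also -0.27) and Gria2, a mossy cell marker, to -0.17 (also -0.17 with the block).

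Leaving out 1 library, the Grm5/Grm7 log2 ratio, dorsal minus ventral, was 0.29 to 0.54, and the log2 ratio of Grm2 over Grm4 levels was 0.18 to 0.45, the highest being without Dorsal library 2 (exact p = 0.0117). With the longest transcript as length, the log2 ratios of levels were 0.82 for Grm7 over Grm3, -0.0092 for Grm2 over Grm4 and 0.24 for Grm4 over Grm8.

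With the replicate number as a block, 2656 and 1673 genes were called, Grm5 at 0.97 and Grm8 at 0.96, and the calls of the 6 receptors did not change, while Dagla, Grip1, Folh1 and Srd5a3 lost theirs. The numbers were not taken to pair the libraries, since residuals of same-numbered libraries correlated at -0.0317 to 0.0695 and 2 of 5 Dorsal libraries correlated best with the Ventral library of their number. This does not show that the animals differ, because per the study's methods both regions came from the same mice. Depth limits the less abundant receptors most, with 35 to 305 counts behind each value of Grm2, Grm3, Grm4 and Grm8.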
